A study of Mus musculus with 2 samples.

Results

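A list of 36 genes of skeletal muscle was followed in long-read RNA sequencing of the mouse adrenal gland. They encode proteins of the contractile filaments, of calcium handling and of energy supply in muscle fibres, and were chosen by name. Their reads were known to be uneven between the libraries when the list was made, so their levels and the gap between the libraries are a description and carry no test. Of the 36 genes, 32 had at least 1 read, out of 16945 annotated genes with a read in either library.

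The tissue was adrenal gland of female B6CASTF1/J mice aged 36 days, a cross of the strains C57BL/6J and CAST/EiJ. Both libraries belong to 1 group, replicate 1 and replicate 2, and no treatment, genotype or age is contrasted. Replicate 1 was made from 1 µg of RNA, and no quantity is stated for replicate 2. The labels number them as biological replicates 1 and 2. One label field gives both libraries the same animal and another gives different animals, so the spread between them may be technical or between animals.

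Replicate 1 held 1144572 reads on annotated genes and replicate 2 held 414588, a 2.76-fold difference in depth. Levels are given as reads per 1000000 reads of annotated genes (CPM). A long read stands for 1 RNA molecule, so reads were not divided by transcript length. A gene with 0 reads may still reach 2.62 CPM in replicate 1 and 7.24 CPM in replicate 2, the level of 3 reads. Folds given below as at least a value set the replicate 1 level against that floor. They leave out the counting error of replicate 1. Known adrenal markers made up 73866 CPM in replicate 1 and 88973 CPM in replicate 2, and all 11 were read in both.

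Skeletal muscle contracts when myosin heads of the thick filament pull on actin of the thin filament. Calcium released from the sarcoplasmic reticulum binds troponin on the thin filament and starts the cycle, and a calcium pump ends it. Fast and slow fibres use different paralogues of most of these proteins. The cortex of the adrenal gland makes steroids and its medulla makes catecholamines, and neither is built of striated fibres.

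The 36 genes held 1518 reads in replicate 1 and 55 in replicate 2. Their summed level was 1326 CPM in replicate 1 and 132.7 CPM in replicate 2, with a mean of 729 ± 844 CPM (SD, n = 2), so the SD exceeded the mean. That is 0.133% and 0.0133% of the reads on annotated genes. In bulk tissue, fewer cells of a type and less RNA per cell cannot be told apart. In replicate 1 the genes with the most reads were Acta1, Ckm, Atp2a1, Tnnc2 and then Tcap and Eno3 with equal reads, and the first 5 of these held 66.0% of the list's reads.

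Of the 36 genes, 18 were read in replicate 1 alone, 8 had a single read in replicate 2, 6 had 3 or more, and none was read in replicate 2 alone. Among all 16945 genes with a read, a set not matched for read level, 19.3% were read in replicate 1 alone and 5.42% in replicate 2 alone. The remaining 4, Myh4, Mylk2, Ldb3 and Cacna1s, had 0 reads in both libraries. A minimum of 10 reads in both libraries together was reached by 18 of the 36. Of those 18, 12 had at most 1 read in replicate 2, beside 3.61% of all 9885 genes at that minimum. By an exact binomial test of reads with Benjamini-Hochberg adjustment over 9885 genes, at an adjusted threshold of 0.05, 10 of the 18 would be called lower in replicate 2 and 0 higher. The same rule called 6.13% of all genes lower and 7.86% higher, and no inference is drawn from the genes' own count since the contrast chose them. The median log2 ratio of replicate 2 to replicate 1 was -3.92 over the 18 and -0.0074 over all genes tested.

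**Figure D1:**
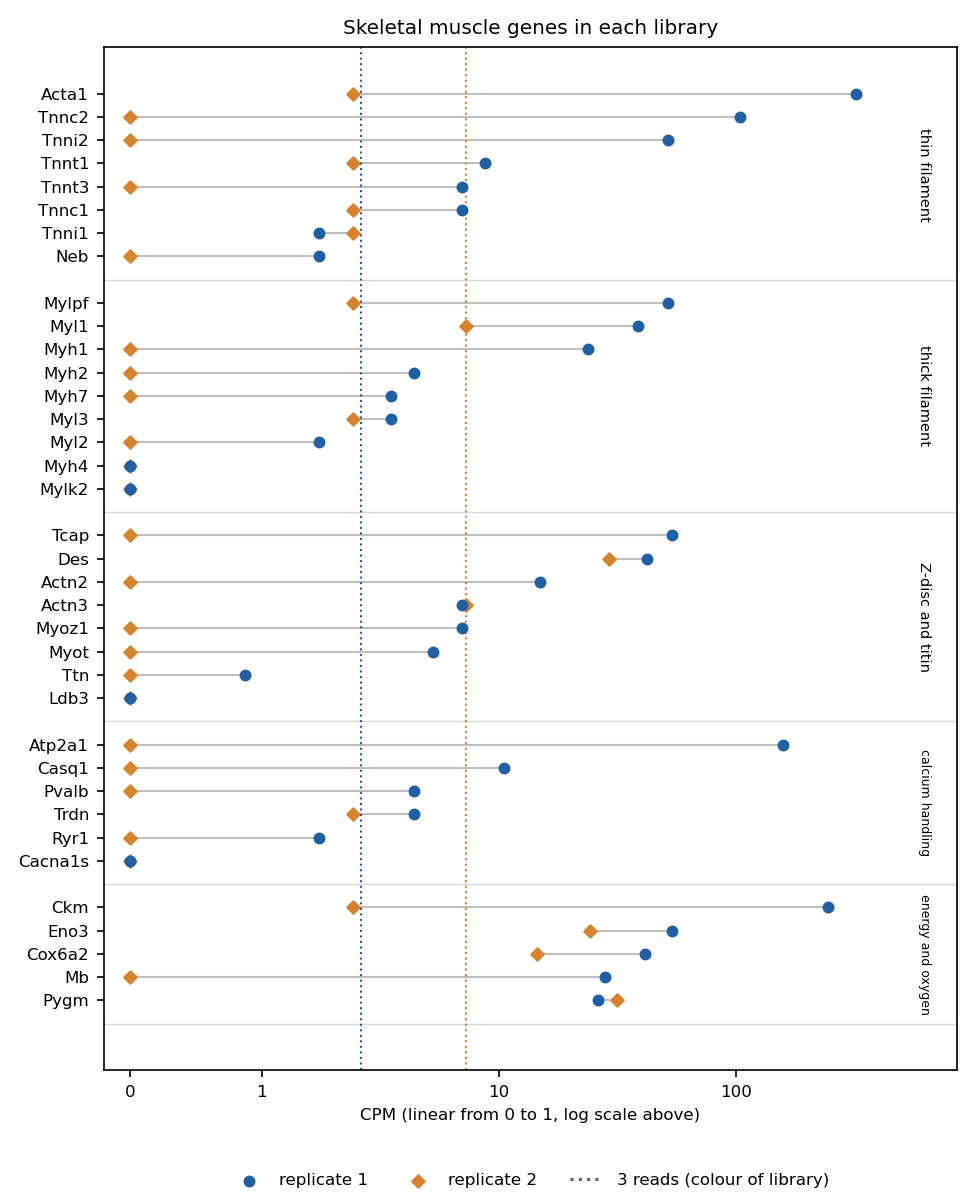
Level of each of the 36 genes in CPM (horizontal axis, linear from 0 to 1 and log scale above) in replicate 1 (blue circles) and replicate 2 (orange diamonds), grouped by role, with dotted lines at the level of 3 reads in each library. Acta1 stands at 319 and 2.41 CPM at the wide end, while Des, Pygm and Actn3 keep both points close together.

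The thin filament held 573 reads in replicate 1 and 4 in replicate 2. Skeletal alpha-actin, Acta1, is the actin of the adult skeletal thin filament. It had 365 reads, or 319 CPM, in replicate 1 and 1 read, or 2.41 CPM, in replicate 2. The ratio was 132, with a counting interval of 23.6 to 5236 that covers counting error only. In replicate 1 Acta1 ranked 561st among annotated genes by reads.

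Acta1 lies at chr8:123891769-123894751 (GRCm38, minus strand). The bases before its RefSeq start, chr8:123894776-123895025 on the minus strand of GRCm38.p6, are shown because Acta1 is the most read of these genes and several of the motifs searched occur there. Capitals mark CAGCTG at position -221, a CArG box at -73 and TATAAA at -7, each the first base of the match counted back from the start. A further match of the looser CANNTG lies upstream of these and is left in lower case.
Acta1 promoter: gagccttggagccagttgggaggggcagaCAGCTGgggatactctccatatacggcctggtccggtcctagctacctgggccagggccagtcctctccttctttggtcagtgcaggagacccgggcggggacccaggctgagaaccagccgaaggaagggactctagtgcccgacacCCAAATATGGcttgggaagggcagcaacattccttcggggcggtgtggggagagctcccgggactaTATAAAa
The GENCODE start of the gene lies 24 bases further downstream. CAGCTG is an E-box, the kind of site that myogenic factors such as MyoD bind, and a CArG box is the site of serum response factor.

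RefSeq promoters of GRCm38.p6 were matched for 26 of the 36 genes, with 33 starts among them, and 250 bases before each start were searched on both strands. CAGCTG occurred in 15 of the 33 (45.5%) and in 13.0% of all 32851 promoters in the table. The looser E-box CANNTG, which includes CAGCTG, occurred in 81.8% against 66.2%. A CArG box occurred in 15.2% against 1.47%, the MEF2 site in 12.1% against 1.69% and TATAAA in 18.2% against 12.4%. Acta1, Atp2a1, Ckm, Casq1, Des, Mb, Mylpf and Pygm were among the 13 genes with CAGCTG. That group includes genes with nearly all their reads in replicate 1 and, in Des and Pygm, genes read in both. It also includes Cacna1s and Myh4, with 0 reads in both libraries, Myl2, with 2 and 0, and Tnni1, with 2 and 1. A CArG box was found for Acta1, Myl3 (4 and 1 reads), and Ldb3 and Myh4, both at 0. The motif shares thus cover genes with no reads here. All are matches of letters and were not examined for binding.

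Troponin C is the calcium sensor of the thin filament, troponin I its inhibitory subunit and troponin T the subunit that ties both to tropomyosin. The fast form of troponin C, Tnnc2, had 119 reads (104 CPM) in replicate 1, and replicate 2 held none of it, at least 14.4-fold lower. The slow form Tnnc1, which cardiac muscle shares, had 8 and 1 reads. Fast troponin I, Tnni2, had 59 reads (51.5 CPM) and 0, at least 7.12-fold lower.

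The remaining thin filament genes were read little in either library. Slow troponin I, Tnni1, had 2 reads and 1. Slow troponin T, Tnnt1, had 10 reads and 1, with a ratio of 3.62 (0.515 to 157). Fast troponin T, Tnnt3, had 8 and 0, and nebulin, Neb, the ruler protein along the thin filament, had 2 and 0. For these 4 genes the depth cannot show a difference, since at its level in replicate 1 Tnnt1 would give 3.62 reads in replicate 2 and each of the others fewer.

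The thick filament held 145 reads and 5. Myosin heavy chains form the filament and its motor, and Myh1, the IIx form of fast fibres, had 27 reads (23.6 CPM) and 0, at least 3.26-fold lower. Myh2, the IIa form, had 5 and 0, the slow form Myh7 had 4 and 0, and Myh4, the IIb form, had 0 in both. Myh2, Myh1 and Myh4 stand next to each other on chromosome 11 between 67171027 and 67260446 and are close paralogues, and the division of reads among them was not checked.

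The light chains sit at the neck of the myosin head. The fast regulatory light chain Mylpf had 59 reads (51.5 CPM) and 1, a ratio of 21.4 (3.69 to 858). The essential light chain Myl1 of fast fibres had 44 reads (38.4 CPM) and 3 (7.24 CPM), a ratio of 5.31 (1.70 to 26.7). Their slow and cardiac counterparts Myl2, with 2 and 0 reads, and Myl3, with 4 and 1, were at or near the level of 3 reads. Mylk2, the skeletal kinase of the regulatory light chain, was at 0.

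The Z-disc anchors the thin filaments, and its genes with titin held 149 reads and 15. Titin-cap, Tcap, which binds the end of titin in the Z-disc, had 61 reads (53.3 CPM) and 0, at least 7.37-fold lower. Alpha-actinin 2, Actn2, a cross-linker of actin there, had 17 reads (14.9 CPM) and 0. That level was 2.05-fold above the floor of replicate 2, and Actn2 would not be called by the binomial rule. Myot and Myoz1, both partners of alpha-actinin, had 6 and 0 and 8 and 0 reads, and titin itself, Ttn, had 1 and 0. Ldb3, another Z-disc adaptor, was at 0 in both.

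Desmin and alpha-actinin 3 differed from these in level across the libraries. Des encodes the intermediate filament of all muscle types, smooth muscle included. It had 48 reads (41.9 CPM) in replicate 1 and 12 (28.9 CPM) in replicate 2, a ratio of 1.45 (0.758 to 3.00) that includes 1. Actn3, the alpha-actinin of fast fibres, had 8 reads and 3, or 6.99 and 7.24 CPM. All 3 reads of Actn3 in replicate 2 fell in a 1-exon model of 549 bp that was also read 2 times in replicate 1, whereas 5 reads of replicate 1 followed the annotated 21-exon transcript Actn3-201.

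Calcium handling held 203 reads and 1. Atp2a1 encodes SERCA1, the pump that returns calcium to the sarcoplasmic reticulum of fast fibres, and had 179 reads (156 CPM) and 0, at least 21.6-fold lower. At its level in replicate 1 it would have given 64.8 reads in replicate 2. Casq1, the calcium store protein calsequestrin of skeletal fibres, had 12 reads (10.5 CPM) and 0. That level was 1.45-fold above the floor of replicate 2, and Casq1 would not be called by the binomial rule.

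The partners of that store were read less. Triadin, Trdn, which links calsequestrin to the release channel, had 5 reads and 1, and the channel itself, Ryr1, had 2 and 0. Parvalbumin, Pvalb, a calcium buffer of fast fibres, had 5 and 0. Cacna1s, the voltage sensor of the T-tubule, was at 0 in both.

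Genes of energy and oxygen supply held 448 reads and 30, the largest share of the list in replicate 2. Muscle creatine kinase, Ckm, which regenerates ATP from phosphocreatine, had 278 reads (243 CPM) and 1 (2.41 CPM), a ratio of 101 (17.9 to 3991). Myoglobin, Mb, the oxygen carrier of muscle, had 32 reads (28.0 CPM) and 0, at least 3.86-fold lower.

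The other 3 energy genes kept reads in both libraries. The muscle enolase Eno3 had 61 reads (53.3 CPM) and 10 (24.1 CPM), a ratio of 2.21 (1.12 to 4.84). Cox6a2, the heart and muscle form of a cytochrome c oxidase subunit, had 47 reads (41.1 CPM) and 6 (14.5 CPM), a ratio of 2.84 (1.21 to 8.12). Muscle glycogen phosphorylase, Pygm, had 30 reads (26.2 CPM) and 13 (31.4 CPM), so its level was the higher one in replicate 2, with a ratio of 0.836 (0.423 to 1.75) that includes 1. Of its reads, 21 and 3 matched the 20-exon transcript Pygm-201, and with fragments left out its log2 ratio turned from 0.32 to -1.13.

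Des, Eno3, Cox6a2 and Pygm, singled out after their values were seen, held 41 of the 55 reads in replicate 2 (74.5%) and 12.3% of the reads in replicate 1. The other 32 genes together had 1332 reads and 14. Of the 14 genes read in replicate 2, 7 had a read that matched every splice junction of an annotated transcript, namely Acta1, Ckm, Tnnc1, Des, Eno3, Cox6a2 and Pygm. The single Mylpf read was a 9-exon model of 2600 bp, against 766 bp for the annotated Mylpf-201. The 3 Myl1 reads were 3 different unannotated models, and the single Trdn read was a 1-exon model of 179 bp.

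Fast paralogues outnumbered slow ones in replicate 1. Over 6 contractile families, 321 of 351 reads were of the fast type, or 91.5% (95% Wilson interval 88.1 to 93.9). In 5 of these families the fast share was high: 88.9% for myosin heavy chains, 93.7% for troponin C, 91.7% for essential light chains, and 96.7% each for troponin I and regulatory light chains. Troponin T was the exception, with 8 reads of the fast Tnnt3 and 10 of the slow Tnnt1, a fast share of 44.4% (24.6 to 66.3). Of the 10 Tnnt1 reads, 7 belonged to a 3-exon fragment model of 776 bp, which also gave the single Tnnt1 read of replicate 2.

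**Figure D2:**
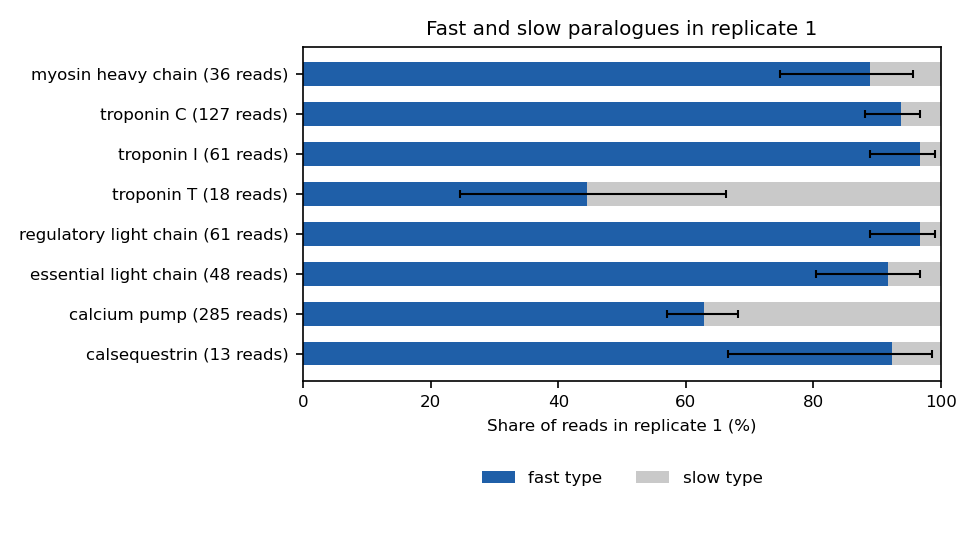
Share of reads in replicate 1 (horizontal axis, %) that belonged to the fast (blue) and the slow (grey) paralogue of each family, with the 95% Wilson interval of the fast share as a black bar. Troponin T, at 44.4%, and the calcium pump, at 62.8%, lie below the other families. The grey part of the pump is Atp2a2, which also serves most other cells and cannot be assigned to slow fibres.

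The calcium pump and calsequestrin were compared in the same way outside the filaments. Atp2a1 held 179 of 285 reads (62.8%) against Atp2a2, which is the slow and cardiac pump and also serves most other cells. Atp2a2 stood at 92.6 CPM in replicate 1 and 77.2 CPM in replicate 2. Its reads cannot be assigned to slow fibres, so the 62.8% is not a share of fibre type. Casq1 held 12 of 13 reads against Casq2. In replicate 2 the 6 contractile families had 4 fast and 4 slow reads, too few to give a fibre type, and Atp2a2 had 32 reads there beside 0 of Atp2a1.

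Most of these genes have counterparts used by other cells, non-muscle cells in most cases and smooth or heart muscle in a few such as Acta2 and Actc1, and library depth sets the precision of the share within each pair but not the share. Acta1 made up 10.6% of actin reads in replicate 1 (365 beside 3074 of Actb, Actg1, Acta2 and Actc1) and 0.127% in replicate 2 (1 beside 788). Ckm made up 76.0% of reads with the brain-type kinase Ckb in replicate 1 and 4.76% in replicate 2. Atp2a1 made up 62.6% of reads with Atp2a2 and Atp2a3 in replicate 1, and it had none of 32 in replicate 2.

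Shares of 4 genes with at least 6 reads in replicate 2 follow. Desmin made up 29.3% of reads with vimentin, Vim, in replicate 1 and 31.6% in replicate 2. Pygm made up 13.9% and 18.1% of reads with the brain and liver phosphorylases Pygb and Pygl. Eno3 made up 4.37% (3.42 to 5.58) and 2.58% (1.41 to 4.69) of enolase reads. Cox6a2 made up 3.48% (2.63 to 4.60) and 0.877% (0.403 to 1.90) of reads with Cox6a1. The intervals of Des, Pygm and Eno3 overlapped between libraries, and those of Cox6a2 did not. Of the Cox6a2 reads in replicate 1, 19 fell in a 1-exon fragment model of 378 bp. With fragments and unspliced reads left out, Cox6a2 had 28 and 5 reads, and its log2 ratio moved from -1.37 to -0.85. Its counterpart Cox6a1 was itself higher in replicate 2, as given below.

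**Figure D3:**
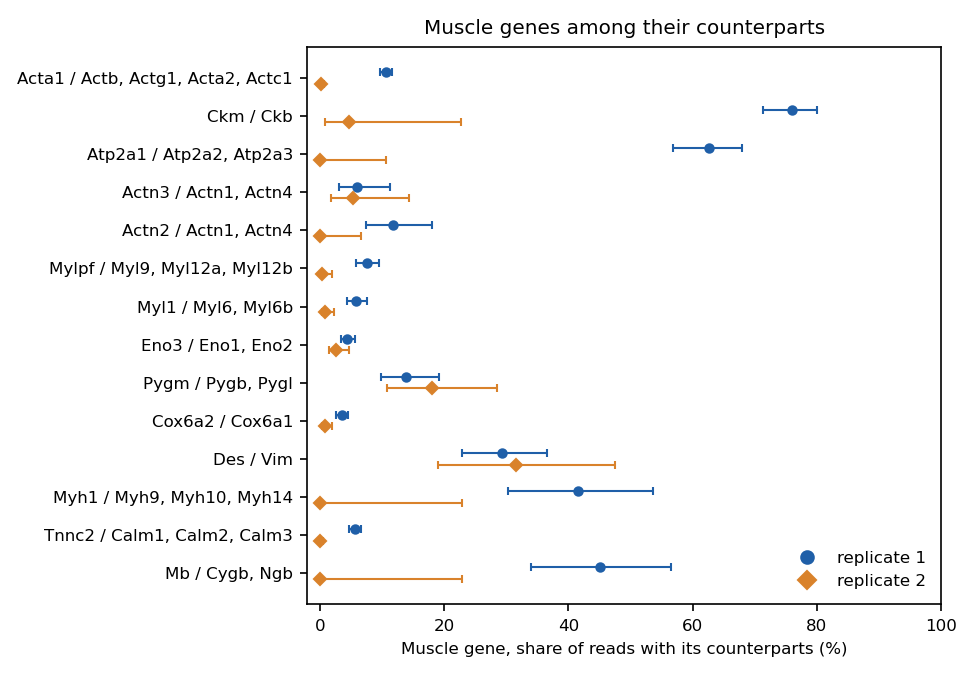
Share of reads held by a muscle gene among itself and its counterparts (horizontal axis, %) in replicate 1 (blue circles) and replicate 2 (orange diamonds), with 95% Wilson intervals, for genes with at least 10 reads. Ckm stands at 76.0% and 4.76% and Atp2a1 at 62.6% and 0, while the intervals of Des, Pygm and Actn3 overlap between libraries.

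The counterparts were listed as paralogues, with earlier results of these data known, and were tested. Of 34, 23 reached 10 reads in total, and by the exact binomial test with adjustment over all 9885 genes 2 were lower in replicate 2, 3 were higher and 18 were not called. These tests compare the reads of 2 libraries and not conditions. Beta-actin, Actb, had 1831 and 369 reads, a log2 ratio of -0.77 (adjusted p = 4.2e-21). Eno1 had 1325 and 374 reads, a log2 ratio of -0.29 (adjusted p = 0.0066), and lost its call without Genomic models, those lacking the gene's splicing (adjusted p = 0.056). Myl9, Myl6 and Cox6a1 were higher in replicate 2, at log2 ratios of 1.40, 0.57 and 0.59, and Myl9 lost its call with replicate 1 thinned to the depth of replicate 2 (adjusted p = 0.064). The median of the 23 was -0.0074.

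A wider list of 91 other genes of skeletal muscle held 89 that matched the annotation, of which 65 had a read, and 33 were read in replicate 1 alone and 2 in replicate 2 alone. Over all genes with a read, a set not matched for read level, the shares were 19.3% and 5.42%. Of the 33, all but Ckmt2 and Ankrd23 had under 10 reads, where depth limits what replicate 2 can show. Of the 65, 21 reached 10 reads, and the same test called 3 lower in replicate 2, 3 higher and 15 neither, with a median log2 ratio of -0.18. The lower genes were the tropomyosins Tpm1, with 179 and 27 reads (log2 ratio -1.18, adjusted p = 0.00028), and Tpm2, with 137 and 21 (-1.15, adjusted p = 0.0032). The third was the mitochondrial creatine kinase of muscle, Ckmt2, with 29 and 0 (adjusted p = 0.0046). With replicate 1 thinned to the depth of replicate 2, Tpm1 and Tpm2 kept their calls and Ckmt2 was not called. The higher ones, Cox7a1, Cox8b and Idh3a, all serve mitochondrial energy supply, and Cox7a1 and Cox8b also stand in the brown fat list. Cox7a1 had 319 and 254 reads (log2 ratio 1.20, adjusted p = 4.8e-20) and Cox8b 854 and 571 (0.95, adjusted p = 3.0e-30). Idh3a had 474 and 213 (0.38, adjusted p = 0.016) and lost its call when libraries were scaled by total reads alone (adjusted p = 0.063).

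Tropomyosin lies along the thin filament, and its genes make both muscle and non-muscle forms from alternative exons. The most read full-length model of Tpm1 in replicate 1, Tpm1-205, held 69 of 163 reads (42.3%) and 0 of 20 in replicate 2. Tpm2-202 held 41 of 119 reads (34.5%) and 0 of 18. The other leading models were read in both libraries, Tpm1-211 with 48 and 5 reads and Tpm2-203 with 64 and 17.

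Markers of other cells that a gland sample could hold gave these values beside the muscle genes. Heart markers had 5 reads in each library (4.37 and 12.1 CPM over 12 genes), and Myh6, Nppa, Nppb, Mybpc3, Nkx2-5 and Actc1 were at 0 in both. Smooth muscle markers summed to 120 CPM in replicate 1 and 94.1 CPM in replicate 2, with 8 of 10 read. None of the 4 tested was called, and the most read was Tagln with 51 and 15 reads. Acta2 had 33 and 4 reads (adjusted p = 0.17) and was called lower once reads without the gene's splicing were left out (log2 ratio -2.24, adjusted p = 0.039). With fragments left out as well, Acta2 was not called (-2.24, adjusted p = 0.054), nor with replicate 1 thinned to the depth of replicate 2 (adjusted p = 0.46). Markers of muscle precursors had 24 and 4 reads over 4 of 10 genes, with 22 and 2 of them from Mef2c, and Pax7, Myf5, Myod1 and Myog were at 0.

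The remaining lists concern tissue around a gland. Tendon markers summed to 46.3 and 41.0 CPM, with 4 of 7 read. Brown fat markers summed to 2791 and 4390 CPM and white fat markers to 6378 and 8843 CPM, all 18 genes being read in both libraries. Both sums were larger in replicate 2, but not every gene in the lists was higher there. Fabp4 had the widest gap in CPM of the white fat genes, with 771 CPM in replicate 1 and 2914 CPM in replicate 2. Its log2 ratio of 1.99 was 0.33 with fragments and unspliced reads left out. Of the 8 white fat genes the exact binomial test called 3 higher, 0 lower and 5 neither. Besides Fabp4, Cfd (0.25, adjusted p = 0.00063) and Car3 (0.15, adjusted p = 0.024) were called higher. Cfd lost its call with thinning (adjusted p = 0.12) and Car3 with scaling by total reads (adjusted p = 0.32). Plin1 (-0.25) and Lep (-1.32, with 9 and 1 reads) were not called, nor was Lpl at 0.0054. Among brown fat genes Cidea was higher (1.09, adjusted p = 3.5e-44), at 0.63 with fragments and unspliced reads left out. Cox7a1 and Cox8b, given above with the wider muscle list, were also higher. Otop1 was lower (-1.79, adjusted p = 0.0035), and Ucp1 and Elovl3 were not called. The part of these cells in the difference was not tested.

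**Figure D4:**
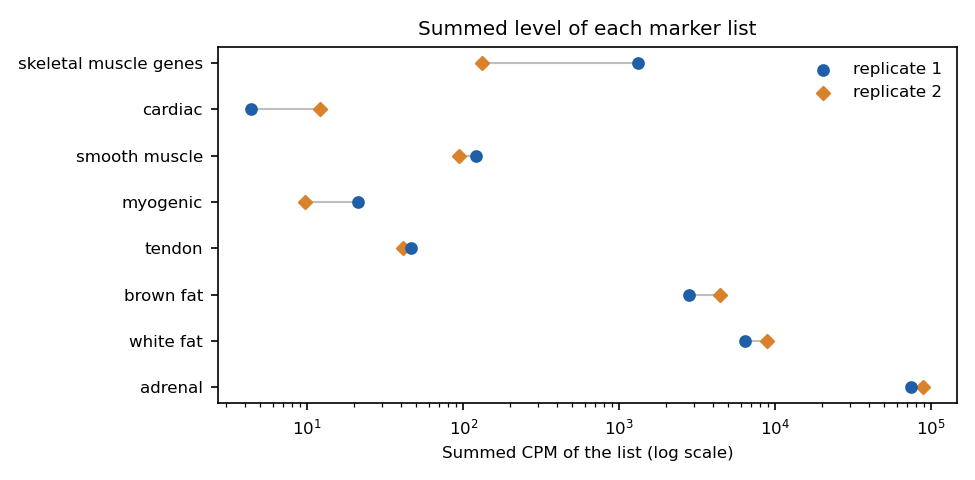
Summed level of each marker list in CPM (horizontal axis, log scale) in replicate 1 (blue circles) and replicate 2 (orange diamonds). The 36 skeletal muscle genes stand at 1326 and 132.7 CPM, whereas smooth muscle, tendon, fat and adrenal lists differ by less between the libraries.

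Each transcript model in the deposited tables belongs to a class. Known models match an annotated transcript, NIC models join annotated splice sites in a new way, NNC models use at least 1 unannotated site, ISM models are fragments of annotated transcripts and Genomic models overlap the gene without its splicing. Of the 1518 reads in replicate 1, 70.0% were Known, 12.4% ISM, 3.75% NIC, 12.6% NNC and 1.25% Genomic. Over all annotated genes the shares were 75.5%, 11.8%, 3.44%, 2.93% and 6.30%. The muscle genes thus had a lower share of Genomic reads and of 1-exon models (4.48% against 13.5%) in that library. Most of their NNC reads came from 1 model of Atp2a1, and without Atp2a1 the NNC share was 2.32% (1.64 to 3.27). Of the 55 reads in replicate 2, 45.5% were Known and 30.9% ISM, where all genes had 69.8% and 16.2%.

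Known, NIC and NNC reads are called full-length here. In replicate 1 the full-length share of the muscle genes was 85.6% for the 17 with an annotated transcript under 1500 bp. It was 90.7% for the 8 from 1500 to under 4000 bp. All genes with a Known read in replicate 1 had 89.8% and 80.8%. For the 7 muscle genes of 4000 bp or more it was 47.8% (22 of 46 reads, 34.1 to 61.9), beside 73.4%. Muscle genes without a Known read were kept, among them Atp2a1 and, in the longest class, Neb, Myh2, Ttn, Ryr1 and Trdn. The shares therefore compare unlike sets, also in the class of 4000 bp or more. That class holds the giants of the sarcomere: the single Ttn read was a 622-bp fragment and both Ryr1 reads were fragments. Full-length by class does not mean complete in length: the 2 Neb reads counted here had 4 and 5 exons beside 74 in Neb-201, and 2 Trdn reads had 4 and 15 beside 38 in Trdn-201. Myh1, with an annotated transcript of 5938 bp, still had 13 full-length reads of 27.

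In most genes 1 annotated transcript took nearly all full-length reads of replicate 1. Acta1-201 held 308 of 316 reads (97.5%), Ckm-203 264 of 265, Tnnc2-201 all 115, Tcap-201 all 57 and Mylpf-201 50 of 51. Des-201, Cox6a2-201 and Pygm-201 also held all of theirs, with 37, 28 and 21 reads, and Mb-203 held 23 of 24. Over all reads of the gene, fragments included, Cox6a2-201 held 59.6%, Pygm-201 70.0% and Myh1-201 25.9%. Eno3 was divided among its full-length reads, with 32 reads of Eno3-201 and 14 of Eno3-202 among 59, as was Myh1, with 7 of Myh1-201 and 5 of Myh1-203 among 13. Actn2-201 held 14 of 16 reads and Casq1-201 11 of 12.

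Myl1 makes its light chain from separate starts. Myl1-201 and Myl1-202 have first exons of their own and different amino ends, of the MLC1f and the MLC3f type. The coding bases particular to each are shown because they set these forms apart, with the start codon in capitals. In both transcripts these bases run from the first exon into the next, and in Myl1-202 only the start codon lies in the first exon. Both are read on the minus strand of GRCm38, from GENCODE M21.
Myl1-201 start: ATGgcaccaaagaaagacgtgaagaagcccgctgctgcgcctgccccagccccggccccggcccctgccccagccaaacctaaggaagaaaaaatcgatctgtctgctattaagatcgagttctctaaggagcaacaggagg
Myl1-202 start: ATGtccttcagtgctgaccagattgccg
The start of Myl1-202 is 28 bases and that of Myl1-201 142 bases. Of 42 spliced reads in replicate 1, 27 used the first intron of Myl1-202 and 10 that of Myl1-201. In replicate 2 the counts were 0 and 1 of 3.

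The unannotated full-length models of the list in replicate 1 numbered 46 with 249 reads, and 40 of them had a single read. Atp2a1 and Tnni2 held 203 of the 249 reads, each mostly in 1 model. In replicate 2 there were 7 such models, of 1 read each. Both leading models lacked a very short annotated exon.

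The leading Atp2a1 model, with 158 of 161 full-length reads, had 22 exons and 3485 bp, where the annotated Atp2a1-201 has 23 exons and 3477 bp. It lacked the second exon of 18 bases, chr7:126462500-126462517, and its first exon was 26 bases longer at the 3′ end. None of 165 reads spanning that place held the exon, which allows a share of up to 1.82%. Further down the gene, the penultimate exon of 42 bases, chr7:126446545-126446586, was present in 174 of 174 reads. That exon is retained in SERCA1a, the adult form of the pump, and skipped in the neonatal SERCA1b.

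Tnni2 had 43 full-length reads, of which 41 followed a model of 7 exons and 725 bp, 1 exon fewer than Tnni2-201 with 732 bp. The missing exon has 7 bases, chr7:142442691-142442697, and was in 0 of 51 spanning reads (up to 5.88%). Tnni1 showed the same kind of model, without an exon of 4 bases at chr1:135803282-135803285, in its 2 reads of replicate 1 and its 1 read of replicate 2. Beside its closest annotated transcript, Tnni1-207 with 10 exons, the Tnni1 model of 9 exons lacked that exon alone. Beside Tnni1-202, from which the exon sequence below was taken, the model also lacked exons of 65 and 196 bases. The short exons are shown because the models of these 3 genes lack them, with the exon in capitals between 10 bases of each neighbouring exon, from GENCODE M21 transcripts on GRCm38.
Atp2a1 exon: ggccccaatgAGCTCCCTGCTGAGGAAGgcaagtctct
Tnni2 exon: ggatgggagaTGAGGAGaagcgcaaca
Tnni1 exon: tgccggaagtTGAGaggaaatcca
Atp2a1 is on the minus strand, Tnni2 and Tnni1 on the plus strand. Short exons of 14 bases in Tnnt1 and Tnnt3 were likewise in 0 of 3 spanning reads each.

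The absence of exons of 1 to 10 bases was not particular to muscle genes. Over all annotated genes, coding exons of 1 to 10 bases that no annotated intron spans were present in 1 of 522 spanning reads of replicate 1 (0.192%, 14 exons) and in 0 of 133 in replicate 2. Exons of 11 to 20 bases were present in 31.6% and 41.8% of spanning reads, those of 21 to 30 bases in 97.3% and 97.8%, and those of 31 to 50 bases in 99.6% and 99.7%. In replicate 1, 43 of the 66 exons of 11 to 20 bases were missing from most spanning reads. The muscle genes in replicate 1 had 0 of 51, 0 of 171, 98.6% and 99.6% in the same classes. Of those 171 reads, 165 spanned the 18-base exon of Atp2a1. Reads of 1 exon share their gene and library and are not independent. Whether these exons were missing from the RNA or from the models was not tested.

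**Figure D5:**
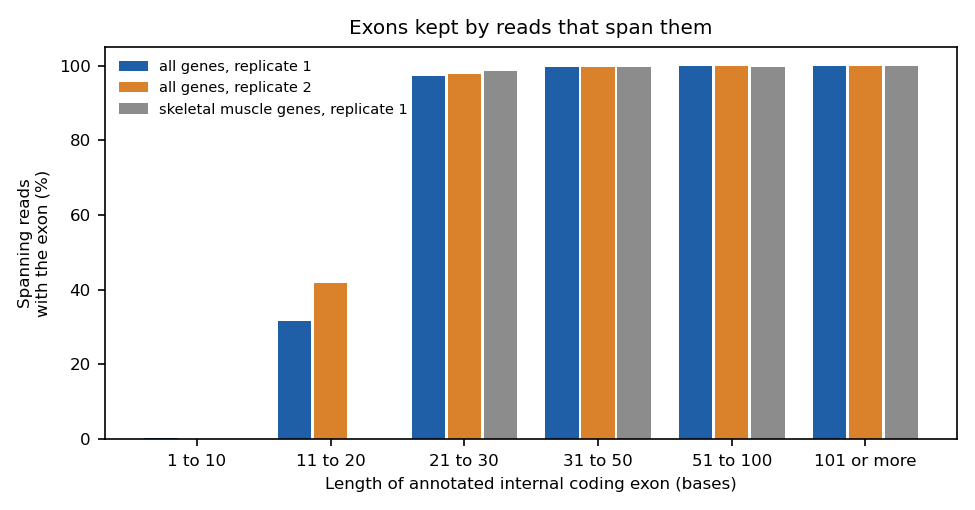
Share of spanning reads that hold an annotated internal coding exon (vertical axis, %) by exon length in bases, for all genes in replicate 1 (blue) and replicate 2 (orange) and for the skeletal muscle genes in replicate 1 (grey). Exons of 1 to 10 bases stand at or near 0 in each set, and each set is above 97% from 21 bases on. The muscle genes are also at 0 for 11 to 20 bases, where 165 of 171 reads span 1 exon of Atp2a1.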

How the data were processed

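Long-read libraries of adrenal gland, 2 in 1 group, were analysed from the transcript model tables and model annotations. The deposited values are counts of whole reads per model, not normalized, as the authors made them with the ENCODE long-read pipeline for mouse, per the labels' protocols. Per the file headers, models refer to mm10 and were classed by TALON against GENCODE M21. The aligner and tool versions were not given in the sources consulted. Total reads were 1223776 and 453761, spike-ins included. Precision is limited by these counts, and intervals (95%, Wilson or exact) and the floor of 3 reads cover counting error only.

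Reads were summed per gene. Folds are ratios of CPM, and log2 ratios took library sizes multiplied by TMM factors, 1.03 and 0.976 (edgeR 4.0.16, R 4.3.3) with a pseudocount of 1. A two-sided exact binomial test (scipy 1.17.1) of genes with at least 10 reads was adjusted by Benjamini-Hochberg over 9885 genes at 0.05. It was tested on simulated counts that held counting error alone, which cannot show how it fares with other spread between libraries. No count model with replicates can be fitted between single libraries. An exon counted as present where a read spanning both neighbours held it.

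The genes and all lists were chosen with earlier results of these data known. The text names each of the 36 genes and, of the other lists, genes that passed the test and those with the most reads, and it gives isoforms for genes with at least 10 full-length reads. Sequences are from RefSeq (GRCm38.p6) and GENCODE M21. No protein sequences were used.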

Additional observations from a re-analysis of the deposited data

How the results depend on the processing

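Results were recomputed with other scalings (total reads, DESeq2 1.42.0 size factors), with full-length reads only, without Genomic models, with replicate 1 thinned to the depth of replicate 2, with no minimum of reads and with a pseudocount of 0.5. The genes called lower in replicate 2 numbered 473 to 728 beside 606, and those called higher numbered 500 with thinning beside 777. The summed level of the muscle genes, a mean of 729 CPM, ranged from 132.7 to 1326 CPM when either replicate was left out, so each library decides it. Their median log2 ratio ranged from -3.92 to -4.88, and the fast share in replicate 1 from 91.4% to 92.7%. Adrenal markers reversed with full-length reads, Cyp11a1 to a log2 ratio of -0.14 and Hsd3b1 to -1.23, and Hsd3b1 stood at -0.034 without Genomic models. The cause was not tested. The calls in the wider muscle list, 3 lower and 3 higher, became 2 and 2 with thinning. Of the leading isoform shares, 18 of 30 moved under another denominator. With full-length reads Actn3 turned from 0.11 to -2.88. Depth limits 14 of the 36 genes, which were read but stayed under 10 reads. No paired analysis was possible because both libraries belong to 1 group.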
